A study of Macaca mulatta with 12 samples.

Results

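The lung of *Macaca mulatta* (rhesus macaque) was represented by 1 small RNA profile among 12 profiles of 8 tissues, and its mature microRNAs (miRNAs) were set against those of the other 11 profiles. Liver, spinal cord and occipital lobe, like lung, had 1 profile, whereas small intestine, large intestine, kidney and muscle had 2. All samples were wild-type, aged 36 months and untreated, and the study's methods name 2 animals, but the labels do not say which animal gave which profile. The lung sample was frozen tissue, the methods do not say which part of the lung was taken, and they describe no isolation of a cell type. Because lung had no replicate, every comparison below is descriptive, no test was run, and differences are read against the spread between the 2 profiles of the 4 tissues that had pairs. The members were all mature miRNAs in the study's list of pre-miRNAs, of which 832 pre-miRNAs with 1219 different mature sequences were analysed here. Of these sequences, 773 had a read in some profile, 503 had a read in lung and 328 had at least 10 reads in lung. A total of 371 passed the filter described below and were compared.

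A miRNA is a short RNA cut from a hairpin, the pre-miRNA, whose arms can each give a mature miRNA, named 5p or 3p. The mature miRNA guides silencing proteins to messenger RNAs that pair with its seed, bases 2 to 8 from the 5' end, so that miRNAs with the same seed form a family with overlapping targets. Lung is built from airways lined by ciliated, secretory and basal epithelial cells, from thin alveolar epithelium and from a dense network of capillaries. It also holds many resident and circulating immune cells. Several miRNAs are textbook marks of such cells, among them miR-34b/c and miR-449 for ciliated epithelium, the miR-200 family for epithelium, miR-126 for endothelium, miR-223 for myeloid cells and miR-150 for mature lymphocytes.

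The sequences of the miRNAs with the largest excess in lung are shown first, because several of them share a seed. Each line gives the read that was counted most often in lung, with the seed in capitals. The miR-34 and miR-449 members of ciliated epithelium have one seed in common, which miR-34a-5p also carries:
miR-34c-5p: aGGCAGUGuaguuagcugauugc
miR-449a-5p: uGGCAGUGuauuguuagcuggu
miR-449b-5p: aGGCAGUGuauuguuagcug
miR-34a-5p: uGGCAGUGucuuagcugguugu
The miR-200 family falls into 2 seed groups, which differ by 1 base of the seed. The most counted reads of miR-141-3p and miR-200c-3p began 1 nucleotide before the start given in the list, which places them in these groups:
miR-141-3p: uAACACUGucugguaaagaug
miR-200a-3p: uAACACUGucugguaacgaug
miR-200c-3p: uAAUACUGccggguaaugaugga
miR-429-3p: uAAUACUGucugguaaaaccg
As listed, the other miRNAs shown here share their seed with none of the 371 miRNAs compared. For miR-203-3p the listed sequence is shown as well, because its most counted lung read began 1 nucleotide later:
miR-1247-3p: aCCCGUCCcguucguccccg
miR-1247-5p: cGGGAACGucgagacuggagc
miR-203-3p, listed: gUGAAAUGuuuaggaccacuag
miR-203-3p, most counted read: uGAAAUGUuuaggaccacuaga
miR-205-5p: uCCUUCAUuccaccggagucugu
miR-126-3p: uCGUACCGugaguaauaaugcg
miR-223-3p: uGUCAGUUugucaaauacc
miR-150-5p: uCUCCCAAcccuuguaccagug
miR-197-3p: uUCACCACcuucuccacccagc
Names are those of the list without the prefix mml-. In 7 pre-miRNAs, mir-1247 among them, the listed 5p and 3p names are exchanged relative to their order in the hairpin.

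The lung profile held 22871409 reads of 557263 unique sequences, and the totals of all 12 profiles lay between 22118095 and 25579064 reads. Reads that matched a pre-miRNA exactly and whose ends each lay at most 2 nucleotides from those of a mature miRNA were assigned to it and expressed as reads per 10000000 valid reads (RPTM). In lung 1 read was therefore worth 0.437 RPTM, and 46.3% of the reads were assigned, between 35.9% in liver and 68.4% in kidney 1. Counting intervals given below are 95% Wilson intervals of the lung reads, and with the limit of 3 reads (1.31 RPTM) used where lung had no read, they cover counting error only, since no molecular identifiers were used. The difference of a miRNA is log2(RPTM + 1) in lung minus the mean of log2(RPTM + 1) over the other 7 tissues, after averaging the 2 profiles of a tissue. A miRNA was called higher or lower when this difference reached 2 in size, which is 4-fold on that scale. Between the 2 profiles of a tissue, the absolute log2 difference had a median of 0.47 and a 95th percentile of 1.67 over the 4 pairs, and 41 of 1484 values (2.76%) reached 4-fold.

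Of the 371 miRNAs, 36 were called higher in lung, which is 9.70% of those compared, and 44 were called lower, which is 11.9%. Lung had the highest value of all 12 profiles for 45 miRNAs (12.1%) and the lowest for 11 (2.96%). The miRNAs with the largest excess were those named for ciliated epithelium (miR-34c-5p and miR-449a-5p), both arms of mir-1247, and the epithelial miR-203-3p, miR-141-3p and miR-205-5p. These were followed by miR-223-3p and miR-150-5p of blood and immune cells, by miR-197-3p and by the endothelial miR-126-3p. The largest deficits were those of miR-192-5p and miR-194-5p of gut and kidney epithelium and of miR-885-5p. The median difference over all 371 was 0.09 and 173 miRNAs lay within 2-fold of the mean of the other tissues, as the plot of lung levels against that mean shows. When the reads were scaled to the assigned reads instead, the median difference became 0.35 with 49 called higher and 40 lower. With TMM factors it became -0.17 with 28 higher and 56 lower, and with median-of-ratios factors -0.24 with 26 higher and 58 lower, so the split between higher and lower calls depends on the scaling. Of the 36 higher calls 26 held under all 4 scalings, and of the 44 lower calls 36 did.

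**Figure D1:**
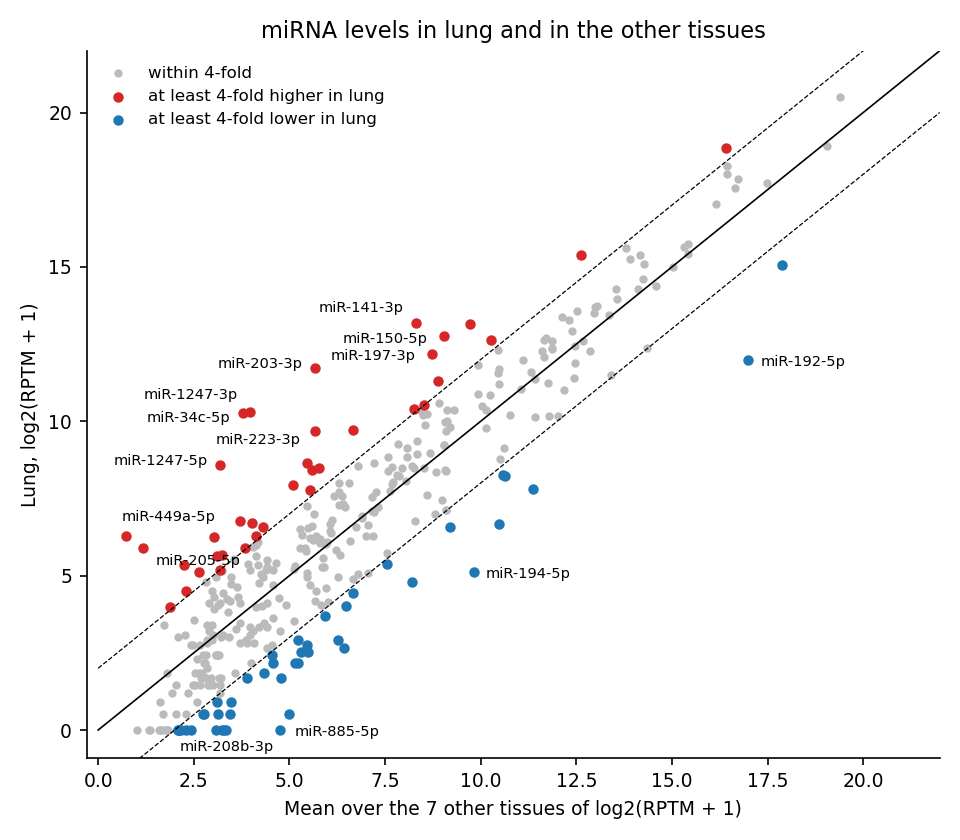
Level of each of the 371 miRNAs in lung (y axis, log2(RPTM + 1)) against the mean over the 7 other tissues (x axis, same scale), with 1 point per miRNA. The solid line marks equality and the dashed lines 4-fold, red points are the 36 miRNAs called higher and blue points the 44 called lower, and the farthest red points are miR-34c-5p, miR-1247-3p and miR-203-3p.

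miR-34c-5p, which with miR-34b and the miR-449 miRNAs is known for promoting the formation of motile cilia, had the largest difference of all. It had 1221 RPTM in lung (counting interval 1177 to 1267), whereas the other profiles ranged from 0.413 in kidney 2 to 210 in spinal cord with a median of 7.65. Lung thus lay 5.80 times above the next profile, and the difference of 6.47 far exceeded the largest difference within a pair, 1.80. miR-449a-5p was scarcer but closer to lung alone. It had 176 reads or 76.95 RPTM in lung (66.4 to 89.2), no read in 5 of the other profiles and at most 2.17 RPTM (occipital lobe), with a difference of 5.56. Both remained highest in lung under all 4 scalings.

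The list for ciliated epithelium held 9 mature miRNAs, of which 3 passed the filter. Among those that had too few reads for the filter, 2 had no read in lung. The 3 of them with the most lung reads are given as reads. miR-34c-3p, the other arm of the same hairpin, had 30 reads in lung and 3 in spinal cord, and none in the other 10 profiles. miR-449b-5p had 26 reads in lung and 5 in occipital lobe, and miR-34b-3p had 24 in lung and 3 in spinal cord, again with none in the remaining 10 profiles. In the RefSeq annotation of the assembly T2T-MMU8v2.0, MIR34C lies beside MIR34B in BTG4 and MIR449A beside MIR449B in CDC20B, so each pair could share a primary transcript. miR-34a-5p, which is encoded elsewhere and is best known as a target of p53, carries the same seed but did not share this pattern. It had 72.1 RPTM in lung, between 15.5 in small intestine 1 and 616 in spinal cord, and a difference of 0.38. Of the 3 members of the list for ciliated epithelium that passed the filter, 2 were called higher, where 9.70% of all 371 miRNAs were. The list median was 5.56 against 0.09 for all miRNAs. That median is the value of miR-449a-5p, which met the filter mean of 5 RPTM only through its lung level, so it is not independent of lung. In these bulk samples, more or fewer cells of a type and more or less RNA per cell cannot be told apart.

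Among the epithelial miRNAs, miR-203-3p, a miRNA of stratified epithelium that represses the basal cell factor p63, had 3364 RPTM in lung (3290 to 3440). The other profiles fell into a group of 4 intestinal values from 292 to 1029 RPTM and 7 values from 6.95 in occipital lobe to 52.1 in muscle 1. Lung lay 3.27 times above the highest of them, large intestine 1, and the difference was 6.04. miR-205-5p, a miRNA of basal and squamous cells, had 134 reads or 58.6 RPTM in lung (49.5 to 69.4) and no read in 5 other profiles. Here the spread between profiles of 1 tissue was wide, with 29.3 RPTM in kidney 1 against 0.413 in kidney 2 and 20.02 in muscle 1 against 0.436 in muscle 2. The difference of 4.72 was therefore only slightly above the largest difference within a pair, 4.42. Lung was above every other profile under all 4 scalings. However, miR-205-5p met the filter mean of 5 RPTM only through its lung level, so its excess is not independent of lung. All 4 scalings used the same set of miRNAs, so they do not remove this limit.

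The miR-200 family keeps cells epithelial by repressing the transcription factors ZEB1 and ZEB2. Of its 6 members that passed the filter 5 were called higher in lung (4 with TMM or median-of-ratios factors), where 9.70% of all 371 miRNAs were. The list median was 2.95. Without occipital lobe and spinal cord only 1 of the 6 was called higher, and the list median was 1.26 against 0.52 for all 371. miR-141-3p had 9354 RPTM in lung (9229 to 9480), against 8.78 in spinal cord to 7970 in small intestine 1 with a median of 869. Its difference was 4.88, but it lay only 1.17 times above small intestine 1, and it was no longer highest with TMM or median-of-ratios factors. None of the other members was highest in lung. miR-200c-3p had 75.2 RPTM in lung, between 70.6 in large intestine 2 and 141.3 in small intestine 2, while liver, occipital lobe and spinal cord had no read. miR-429-3p had 839 RPTM in lung, less than in the kidney and intestinal profiles (954 to 3185) and more than in liver (168) and the muscle and neural profiles (1.25 to 26.7). miR-200a-3p, encoded beside miR-429, had 344 RPTM in lung and 1.25 to 794 in the others. The differences of these 3 were 3.21, 3.06 and 2.84, and against the arithmetic mean of the other tissues, which the intestine dominates, they were 0.76, 0.08 and 0.44, under 4-fold. The member that was not called was miR-200a-5p, the other arm of miR-200a, with 17.9 RPTM in lung and a difference of 0.87. It was below every kidney and intestinal profile (36.4 to 177) and above liver (12.1) and the muscle and neural profiles (0 to 1.25). miR-375-3p, known from neuroendocrine and islet cells, had 42424 RPTM in lung, next to 42511 in large intestine 2 and under the 95210 to 108890 of the remaining intestinal profiles, with a difference of 2.75 (0.49 against the arithmetic mean). The other member of the neuroendocrine list, miR-7-5p, had only 3 reads in lung (1.31 RPTM) against 0 to 25.1 RPTM elsewhere and a difference of -1.15.

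Both arms of mir-1247 were highest in lung under all 4 scalings. miR-1247-3p had 1268 RPTM (1222 to 1315), and the other profiles ranged from 2.11 in small intestine 2 to 221 in liver with a median of 9.38. miR-1247-5p had 384 RPTM (360 to 411), and the others ranged from 1.30 in occipital lobe to 153 in liver with a median of 5.53. Their differences were 6.34 and 5.39, and liver and muscle 1 came next in both arms, so lung, liver and muscle 1 led in this order in both arms of the hairpin. miR-197-3p had 4645 RPTM in lung (4558 to 4734) against 71.5 in kidney 1 to 2618 in muscle 2, a difference of 3.45. For miR-197-3p the muscle and neural profiles, from 1146 to 2618, stood apart from the other 7 profiles at 71.5 to 288.

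**Figure D2:**
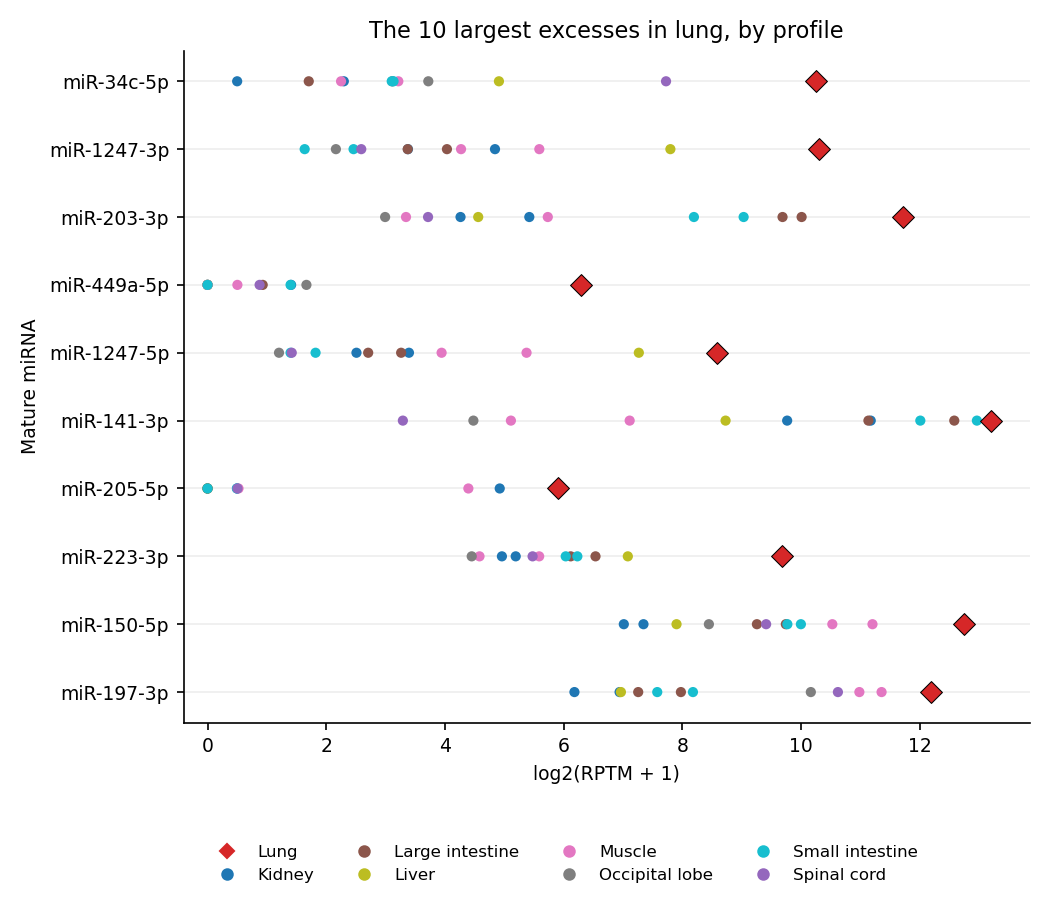
RPTM by profile (x axis, log scale of RPTM + 1) of the 10 miRNAs with the largest difference among those called higher and highest in lung, 1 line of points per miRNA, with lung in red and the other tissues in their own colours. Lung is the rightmost point of each line, by 35.4 times for miR-449a-5p and by 1.17 times for miR-141-3p.

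miR-126-3p, which is encoded in an intron of the endothelial gene EGFL7 and acts in the growth of vessels, had 9051 RPTM in lung (8929 to 9175). In the other profiles it ranged from 325 in small intestine 1 to 2049 in muscle 2 with a median of 940, so lung lay 4.42 times above the next profile. The difference was 3.44, against at most 0.45 within a pair, which was the smallest spread among the miRNAs with large excess named here. It stayed between 3.03 and 3.69 in 20 alternatives and was highest in lung under all 4 scalings.

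The miRNAs of blood and immune cells were higher in part. miR-223-3p, a miRNA of neutrophils and macrophages, had 816 RPTM in lung (780 to 854) against 20.9 in occipital lobe to 134 in liver with a median of 47.1. Lung was 6.08 times above liver, and the difference of 3.999 exceeded the largest difference within a pair of 1.01. miR-150-5p, a miRNA of mature B and T cells, had 6881 RPTM in lung (6774 to 6989) against 128 in kidney 2 to 2354 in muscle 2, with a difference of 3.71. miR-142-5p, which is made in all blood cell lineages, had 2550 RPTM in lung against 99.1 in occipital lobe to 1820 in small intestine 1. Its difference was 2.43, and it was highest with RPTM or assigned reads but not with TMM or median-of-ratios factors. By contrast, miR-155-5p (147 RPTM, difference 0.74), named outside the rule, and miR-146a-5p (1309 RPTM, 1.05), both induced in activated immune cells, lay inside the range of the other profiles. miR-146b-5p was the most abundant member at 13676 RPTM, with a difference of 0.69. Of the 10 members of the list 3 were called higher and 4 were highest in lung (5 and 6 with assigned reads, 3 and 3 with TMM or median-of-ratios factors), and the list median was 1.43. Over all 371 miRNAs 9.70% were called higher and 12.1% were highest in lung. The 2 arms of mir-511, which lies in the macrophage mannose receptor gene MRC1 and was named here after its values were seen, had differences of 3.10 for miR-511-3p and 3.08 for miR-511-5p. With 39.8 and 108 RPTM in lung, lung lay 2.19 and 2.17 times above liver, the next profile at 18.2 and 50.01 RPTM.

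Red cell miRNAs, which stand beside those of the immune cells because both travel in blood, were higher in lung in part. miR-144-3p and miR-451-5p, neighbours that are made at high levels in erythroid cells, had 242 and 1362 RPTM in lung. The other profiles ranged from 3.16 in large intestine 1 to 200 in muscle 2 for miR-144-3p and from 46.1 in large intestine 1 to 5006 in muscle 2 for miR-451-5p. Their differences were 2.83 and 2.17, whereas the 2 muscle profiles differed from each other by 3.38 and 4.08 on the log2 scale. Without muscle 2 the differences of lung were 3.19 and 2.62, and against the arithmetic mean of the other tissues they were 2.13 and 1.14. miR-486-5p, found in red cells and in striated muscle, had 265062 RPTM in lung and a difference of 1.58. miR-486-3p, its other arm, is listed with 2 sequences, which had 94.4 and 49.4 RPTM in lung and differences of -0.17 and -0.66. Muscle 1 was highest for both miR-486-3p sequences, at 1882 and 1921 RPTM. Summed over the 5 members that passed the filter, the erythroid list had 266810 RPTM in lung and 9415 to 824095 in the other profiles. Of these members 2 were called higher (1 with TMM or median-of-ratios factors), where 9.70% of all 371 miRNAs were. The part of blood in the lung values of the immune miRNAs was not tested.

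The miR-17 clusters had smaller differences, with highest values in lung that depended on the scaling. Of 12 members of the miR-17 clusters (miR-17-92, miR-106a-363 and miR-106b-25), which act in cell proliferation, none was called higher or lower. Yet 8 had their highest value in lung, where 12.1% of all 371 miRNAs did, with a list median of 1.03. miR-19b-3p was the clearest, with 5070 RPTM in lung against 710 in occipital lobe to 2300 in small intestine 1 and a difference of 1.85. It was also the only 1 of the 8 that stayed highest under all 4 scalings. The number of members highest in lung was 7 with assigned reads, 2 with TMM factors and 1 with median-of-ratios factors, so that this pattern depends on the scaling. miR-32-5p, which shares its seed with miR-25 and miR-92a, was called higher at 219 RPTM (16.5 to 154 elsewhere, difference 2.25), and miR-32-5p was outside the rule for naming. miR-130a-3p had 6381 RPTM in lung against 503 in muscle 2 to 2582 in occipital lobe, a difference of 2.38, whereas its seed partners miR-301a-3p and miR-301b-3p had differences of 0.30 and -1.48.

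miR-221-3p and miR-222-3p, which share a seed and act in vessels and in dividing cells, had 1474 and 209 RPTM in lung. The kidney profiles came next for miR-221-3p (941 and 995) and lay on either side of lung for miR-222-3p (191 and 217.4), and the differences were 2.01 and 1.43. The difference of miR-221-3p stayed past 2 in 10 of 20 alternative settings, and was 1.98 without the large intestine 2 or the muscle 2 profile and just under 2 without the small intestine 2 profile. The neighbours miR-224-5p and miR-452-5p in GABRE had 49.4 and 48.5 RPTM in lung and up to 34.8 and 32.1 in kidney 1, with differences of 2.41 and 2.52. None of miR-221-3p, miR-224-5p and miR-452-5p was highest with TMM or median-of-ratios factors. miR-339-5p, outside the rule for naming, had 404 RPTM in lung against 13.2 to 141.4 elsewhere and a difference of 3.21, and it was highest under all 4 scalings.

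The HOX cluster miRNAs of the miR-10 family went in opposite directions. miR-10a-5p and miR-10b-5p have the same seed and differ by 1 base over 23 nucleotides, U12A from miR-10a to miR-10b, counted from the 5' end:
miR-10a-5p, listed: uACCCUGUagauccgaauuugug
miR-10b-5p, listed: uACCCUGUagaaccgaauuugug
miR-10a-5p, encoded in HOXB3, was the third most abundant miRNA of lung at 474119 RPTM and was called higher with a difference of 2.45. Occipital lobe (1146 RPTM) and spinal cord (70444) were lower, and without these neural tissues the difference was 1.14. miR-10b-5p, encoded in HOXD4, had 34558 RPTM in lung against 8946 in occipital lobe to 3705808 in kidney 1 with a median of 466092, and it was called lower at -2.79. Only liver (22211) and occipital lobe had less. miR-196a-5p and miR-196b-5p, which lie between HOX genes as well, had 6.56 and 17.1 RPTM in lung and differences of -3.36 and -1.50. Of the 6 members of this list, 1 was called higher and 2 were called lower under each of the 4 scalings. With RPTM 9.70% of all 371 miRNAs were called higher and 11.9% lower.

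**Figure D3:**
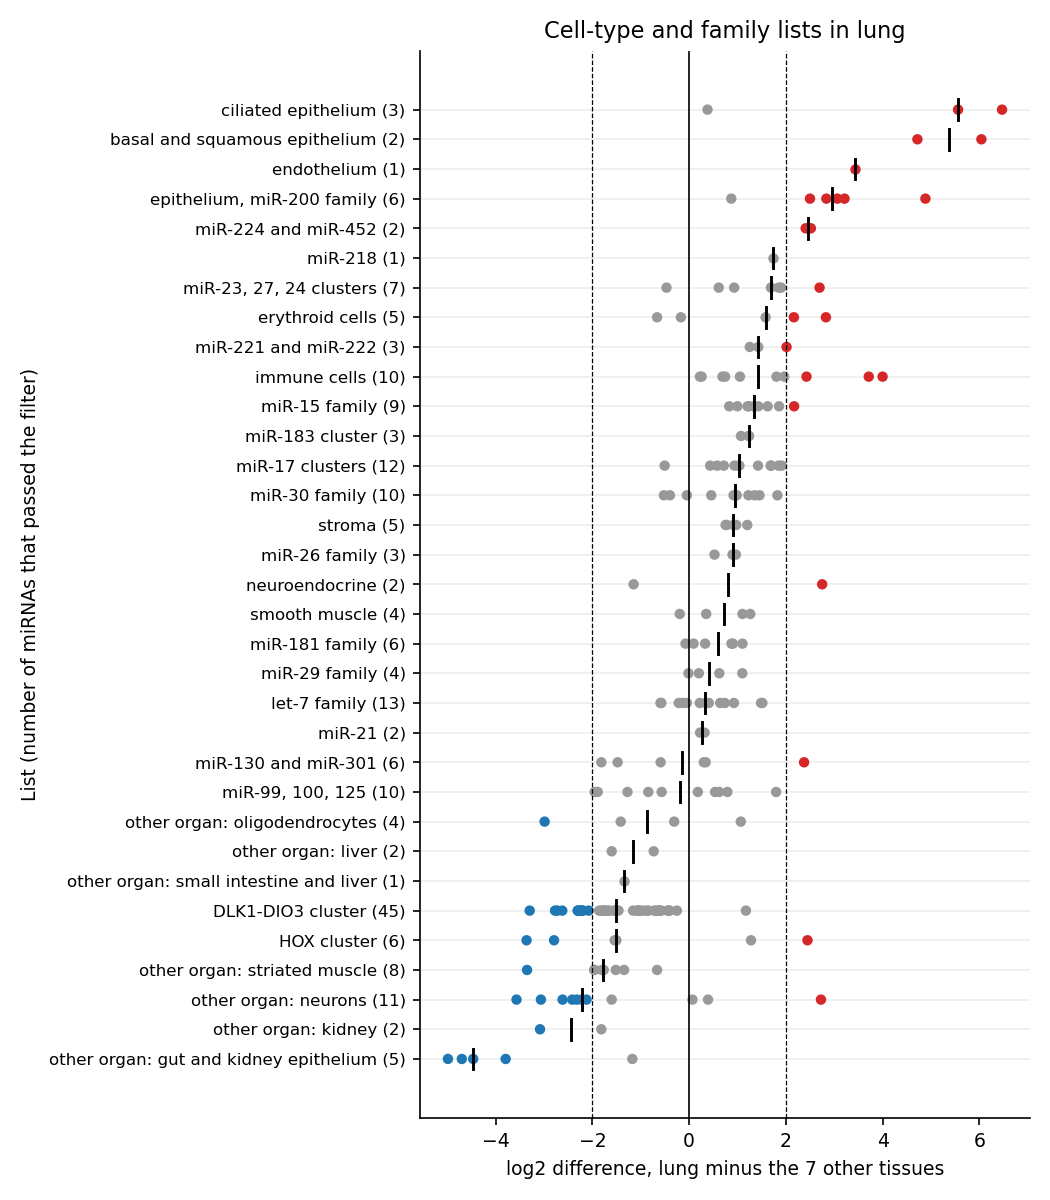
Difference between lung and the mean of the 7 other tissues (x axis, log2) for the members of each list of miRNAs that passed the filter, 1 point per miRNA and 1 line per list, with members called higher in red and lower in blue and the list median as a bar. The lists for ciliated epithelium, basal and squamous epithelium and endothelium have medians of 5.56, 5.38 and 3.44, and the list for gut and kidney epithelium has the lowest, -4.46. That lowest median is the value of miR-194-2-3p, which had 1 read in lung (0.437 RPTM). Its difference became -2.31 with a pseudocount of 10 RPTM. The median for ciliated epithelium is the value of miR-449a-5p, which passed the filter only through its lung level. So did miR-205-5p, 1 of the 2 members in the median for basal and squamous epithelium.

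The largest deficits in lung were those of the miR-192 and miR-194 miRNAs of intestinal and kidney epithelium and hepatocytes. miR-192-5p and miR-215-5p share a seed and differ over 21 nucleotides by C1A and C20A, from miR-192 to miR-215 and counted from the 5' end. They are shown with miR-194-5p, which is encoded beside each of them:
miR-192-5p: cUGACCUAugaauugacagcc
miR-215-5p: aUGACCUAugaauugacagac
miR-194-5p: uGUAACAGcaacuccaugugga
miR-192-5p had 4096 RPTM in lung (4013 to 4179), the lowest of the 12 profiles, and the others ranged from 6511 in muscle 1 to 1873843 in small intestine 1 with a median of 277153. Its difference was -4.98, and lung was lowest under all 4 scalings. miR-194-5p had 77 reads or 33.7 RPTM in lung (26.9 to 42.1) and 42.6 in muscle 1 to 23053 in small intestine 1, with a difference of -4.70. It was lowest in lung except when scaled to the assigned reads. miR-215-5p had 101 RPTM in lung, between 70.7 in spinal cord and 153 in occipital lobe, against 183652 in small intestine 2, with a difference of -3.79. Of the 5 members of this list 4 were called lower under each of the 4 scalings, where 11.9% of all 371 miRNAs were called lower with RPTM. For the miR-200 family lung lay near gut and kidney, whereas for these 3 miRNAs it lay near muscle and spinal cord.

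**Figure D4:**
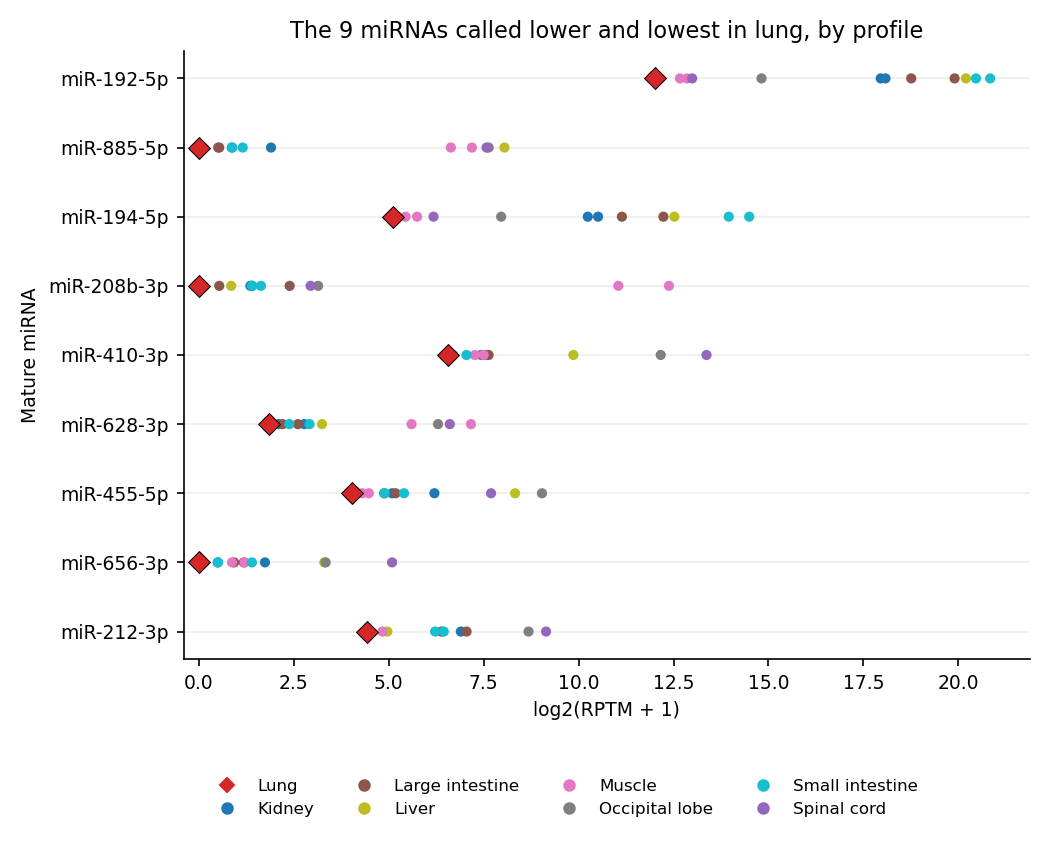
RPTM by profile (x axis, log scale of RPTM + 1) of the 9 miRNAs called lower and lowest in lung, 1 line of points per miRNA, with lung in red. miR-192-5p has 4096 RPTM in lung and 6511 to 1873843 elsewhere, and miR-885-5p, miR-208b-3p and miR-656-3p have no read in lung.

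A total of 9 miRNAs were both called lower and lowest in lung. miR-885-5p had no read in lung, at most 2.74 RPTM in kidney and intestine, and 98.5 to 264 in liver, muscle and the neural tissues. Its difference was -4.75, and -3.54 with lung set to 3 reads. The arithmetic mean of the other 7 tissues was at least 84.5-fold above lung by the same limit. miR-208b-3p, encoded in the slow muscle myosin gene MYH7, had no read in lung, 2113 and 5326 RPTM in muscle and at most 7.82 elsewhere. Its difference was -3.35, -2.14 with lung set to 3 reads and -1.57 with a pseudocount of 10 RPTM, whereas lung was at least 407-fold lower than the arithmetic mean, which the muscle profiles carry. miR-656-3p had no read in lung and 0.413 to 33.0 RPTM elsewhere, with a difference of -2.30 (-1.09 with lung set to 3 reads) and a level at least 6.06-fold under the arithmetic mean. miR-628-3p (2.62 RPTM), miR-455-5p (15.3), miR-212-3p (20.5) and miR-410-3p (94.0) had differences of -2.47, -2.46, -2.24 and -2.62. The lowest other profile was only 1.22 times above lung for miR-455-5p (18.7 RPTM in muscle 2), 1.03 times for miR-212-3p (21.1 in kidney 2) and 1.05 times for miR-410-3p (98.4 in kidney 2), and these 3 were not lowest when scaled to the assigned reads.

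In 31 of the 44 lower calls (70.5%) the highest profile was occipital lobe or spinal cord, and among all 371 miRNAs a neural profile was the highest of the 11 other profiles for 210 (56.6%). Of 11 miRNAs on the list for neurons, 7 were called lower (6 under the other scalings), where 11.9% of all 371 were. None of the 11 was called lower against the median of the other tissues or without the neural tissues. miR-9-5p had 221 RPTM in lung, within the range of 169 to 988 of the other organs, against 261318 and 383871 in the neural tissues, and its difference was -3.57. miR-124a-3p, named outside the rule, had 8 reads in lung (3.50 RPTM), as in the other organs (0.871 to 7.26), against 3278 and 10508 in the neural tissues. The exception was miR-138-5p, which is abundant in brain and was called higher. It had 362 RPTM in lung, behind spinal cord (1933) and occipital lobe (973) and above kidney (117 and 164), while the remaining 7 profiles had 2.61 to 15.2. Its difference was 2.72, and -0.28 against the arithmetic mean of the other tissues. miR-219-2-3p, a miRNA of oligodendrocytes, was called lower at 3.50 RPTM, but without the neural tissues the difference was 0.02.

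The imprinted DLK1-DIO3 cluster, a large group of miRNAs expressed from the maternal chromosome, was on the low side, to an extent that depended on the neural tissues. Of its 45 members that passed the filter 12 were called lower and none higher, where 11.9% of all 371 were called lower. The lower calls numbered 11, 16 and 16 with assigned reads, TMM and median-of-ratios factors. The list median was -1.51 (-1.07 with lung set to 3 reads where it had none), with differences from -3.29 to 1.17. Without the neural tissues none of the 45 was called lower and 1 was called higher, and the list median was -0.57 against 0.52 for all 371. Against the median of the other tissues 2 were called lower, with a list median of -0.54 against 0.43 for all. Its summed level was 5565 RPTM in lung and 4468 to 106936 in the other profiles, with spinal cord at the top. miR-411-5p (2678 RPTM) and miR-127-3p (1152 RPTM) were its most abundant members in lung. Their differences of -1.06 and -1.86 became 0.04 and -0.56 against the median of the other tissues.

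The other lists of foreign organs served to check the tissue label. miR-122a-5p of hepatocytes had 10 reads in lung (4.37 RPTM) against 7320 RPTM in liver, and miR-133a-3p of striated muscle had 139 RPTM against 144690 in muscle 2. miR-802-5p of small intestine and liver, all 8 mature miRNAs of the list for kidney, all 4 of the list for pancreas and, named outside the rule, miR-206-3p of muscle had no read in lung. The series had no pancreas profile, and none of the 4 pancreas miRNAs passed the filter. Their sum was at most 18.4 RPTM in another profile, so their absence tells little about the tissue. Of the 8 on the kidney list 2 passed the filter. Low levels of foreign miRNAs can set lung apart only from the organs they mark. No list of miRNAs made in lung alone was used, so the label was read from the ciliated, endothelial and epithelial miRNAs given above and from the low levels of the foreign ones other than those of pancreas. Among these, miR-449a-5p and miR-205-5p passed the filter only through their lung level and are not independent of lung. For the miR-200 family lung lay near gut and kidney.

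The bulk of the lung miRNA reads came from miRNAs that most tissues share. The 10 most abundant miRNAs held 83.4% of the assigned reads. They were led by miR-143-3p, a miRNA of smooth muscle and fibroblasts, with 1480577 RPTM. The intestinal profiles had more miR-143-3p (2345167 to 3567909) and the others less (103028 to 946137), and its difference was 1.10. After miR-143-3p came let-7f-5p (494378), miR-10a-5p, miR-30a-5p (317574), miR-486-5p, miR-181a-5p (233706), let-7a-5p (213567), miR-27b-3p (194312), miR-26a-5p (135307) and let-7i-5p (55265). Among these 10 only miR-10a-5p was called, and let-7f-5p had a difference of -0.14. miR-27b-3p alone was highest in lung, 1.13 times above liver, but it was highest under none of the other 3 scalings. In the lists, none of 13 let-7 members, 10 miR-30 members, 5 stromal members and 4 smooth muscle members was called. Among all 371 miRNAs 9.70% were called higher and 11.9% lower, so the absence of calls says little for the short stromal and smooth muscle lists. Without the neural tissues 2 let-7 members and 1 miR-30 member were called higher.

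The 45 miRNAs highest in lung were mostly close to the next profile. For 15 of them lung lay at least 2 times above it and for 22 less than 1.5 times, and the next profile was liver for 12 and muscle 2 for 10. Of the 45, 20 were highest under all 4 scalings, among them miR-34c-5p, miR-449a-5p, miR-205-5p, miR-203-3p, miR-126-3p, miR-223-3p and both arms of mir-1247, mir-150 and mir-511. Among these, miR-449a-5p and miR-205-5p passed the filter only through their lung level. Under TMM and median-of-ratios factors the totals were 27 and 25 highest and 35 and 39 lowest. Counting for each profile the miRNAs above all profiles of other tissues, lung with 45 followed spinal cord (108), occipital lobe (96) and muscle 2 (48), and large intestine had the fewest (5 in each profile).

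Over the 371 miRNAs, lung was nearest to large intestine 2, at a Euclidean distance of 38.4 on log2(RPTM + 1), and then to kidney 1 (39.5), large intestine 1 (39.98) and kidney 2 (40.3). Liver was at 43.7, muscle at 45.9 and 49.7, and occipital lobe and spinal cord were farthest at 66.8 and 67.1. The 2 profiles of a tissue were only 14.6 to 17.5 apart, so the nearest profile was still 2.38 times the mean distance of a pair away. Between lung and large intestine 2, 82 miRNAs were at least 4-fold apart, against 6 to 15 within a pair. The largest excess over the mean of the large intestine profiles was that of miR-34c-5p (7.68 on the log2 scale), miR-1247-3p (6.57) and miR-205-5p (5.90). The largest deficits were those of miR-192-5p (-7.44), miR-215-5p (-6.97), miR-194-5p (-6.67), miR-194-2-3p (-6.13, with 0.437 RPTM in lung) and miR-196b-5p (-6.05).

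**Figure D5:**
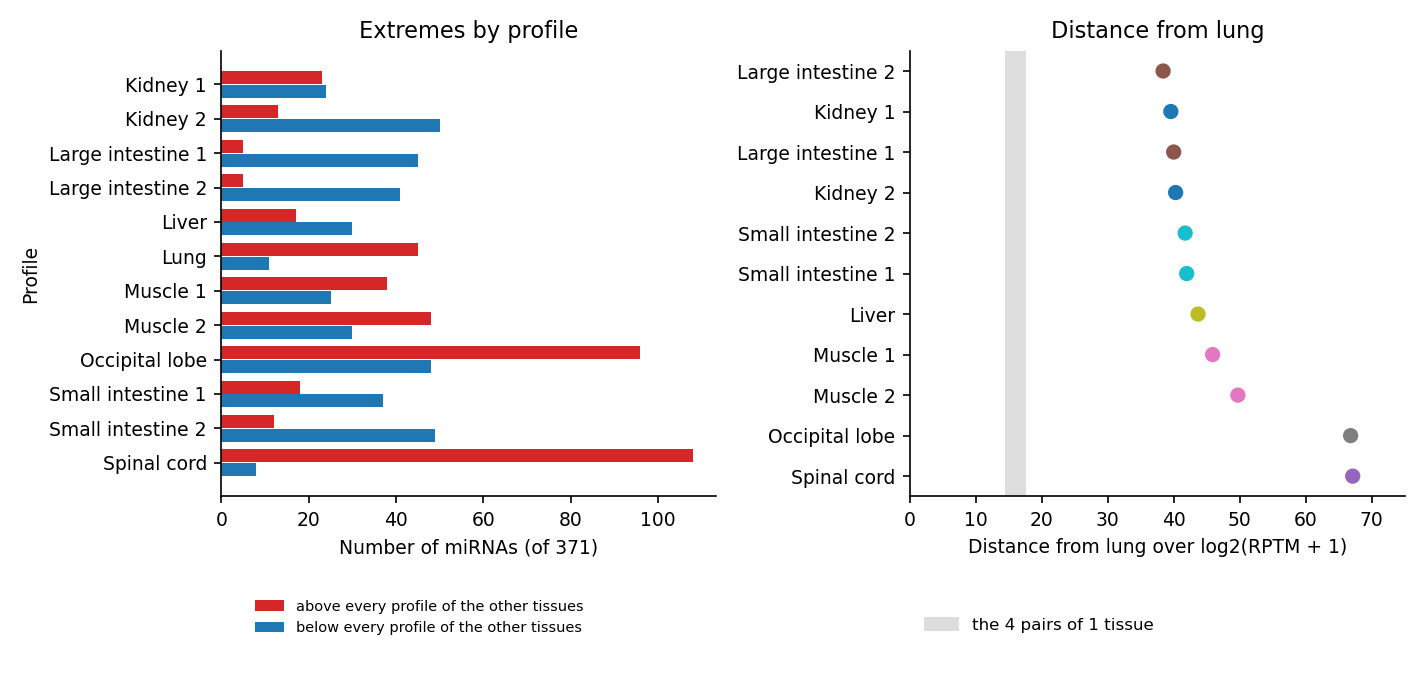
Left, number of miRNAs in each profile above (red) or below (blue) every profile of the other tissues, of 371. Right, Euclidean distance from lung to each other profile on log2(RPTM + 1), with the 4 distances within pairs of profiles for comparison; lung has 45 above and 11 below, and its distances run from 38.4 to 67.1 while those within pairs run from 14.6 to 17.5.

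The ends of the lung miRNAs mostly followed those of other tissues. Among 270 miRNAs with at least 20 lung reads, a median of 99.3% of the reads began at the main start, and the main start differed from the listed one for 30. In 97.0% of its 21393 lung reads miR-141-3p was the single 21-nucleotide sequence shown above. miR-203-3p was mixed, with 55.6% of lung reads at the listed start against 51.7% to 77.6% in 10 other profiles, and miR-126-3p had 72.7% at its main start against 67.0% to 78.3%. Both mixed starts were thus inside the range of the other tissues.

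The use of the arms of a hairpin was compared for 96 pre-miRNAs with at least 100 reads in lung and in at least 6 other profiles. The share of the 3' arm in lung was above the range of the others in 13 and below it in 11. The counting interval of the lung share lay clear of that range in only 5 and 9 of these, since several rest on few reads of the minor arm. The examples that follow were chosen after their values were seen. In mir-339 the 3' arm held 46.9% of the lung reads (44.6% to 49.3%) and 50.5% to 94.8% elsewhere. In mir-708 it held 42.2% (35.2% to 49.5%) of only 180 lung reads, against 65.0% to 87.9% in 8 profiles. In mir-361 the 3' arm had 48.5% in lung against 22.4% to 44.5%.

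Reads with 1 or 2 added bases at the 3' end, which match the pre-miRNA up to the tail, were counted separately and are given as shares of all reads of a miRNA, with and without tails. Added A was more common in lung than in any other profile, with 9.26% against 2.72% to 7.70%, whereas added U (5.95%, against 1.72% to 10.7%) and other tails (23.3%, against 10.6% to 27.8%) lay inside the range. These shares pool all reads, so abundant miRNAs weigh most in them. As examples, the share of added A was 24.3% for miR-10a-5p against 9.90% to 18.3% and 15.1% for let-7a-5p against 6.04% to 10.3%. Over the miRNAs with at least 100 such reads in each profile the median share of added A was 4.63% in lung and 2.78% to 4.56% elsewhere. Other tails differed between the kidney profiles as well, 10.6% against 23.8%, so tail shares vary between profiles of 1 tissue.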

How the data were processed

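Small RNA libraries of 12 macaque tissue samples were sequenced on Illumina machines. The authors kept reads with high sequencing scores, removed the 3' adapter and deposited, per sample, each unique sequence of at least 18 nucleotides with its count, without normalization. The listed pre-miRNAs and mature miRNAs were taken from the study's supplement, and 7 mature names not found in their pre-miRNA were left out. Listed pre-miRNAs beyond the 832 were not analysed here. Reads that fit several miRNAs were counted for each. No genome sequence was used, so reads that also match elsewhere were not removed, and the host genes named come from RefSeq T2T-MMU8v2.0 while the study used Mmul_8.0.1.

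Scripts in Python 3.11.15 (numpy 2.4.6, pandas 2.3.3, scipy 1.17.1, matplotlib 3.10.9) assigned the reads, computed RPTM values and removed miRNAs whose mean over the 12 profiles was under 5 RPTM or whose standard deviation was under 1. The pseudocount was 1 RPTM. R 4.3.3 with edgeR 4.0.16 and DESeq2 1.42.0 gave the TMM and median-of-ratios factors, which served only as scalings, and no test was run. The calling step was tested on simulated data with changes in lung well above 4-fold and no differences among the other tissues. That simulation therefore says little about calls near 4-fold. Alternatives were other rules for assigning reads, scalings, filters, pseudocounts, thresholds and references, and leaving out each of the 8 paired profiles. The miRNAs named follow a rule: the 10 largest differences in each direction among miRNAs called and extreme in lung (9 existed for lower), the 10 most abundant in lung, and up to 4 members of each list by lung level. All others were named after their values were seen. The members and lists were chosen with earlier results of these data known. With 22118095 to 25579064 reads per profile, 1 read was worth 0.391 to 0.452 RPTM, which limits the precision of low levels.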

Additional observations from a re-analysis of the deposited data

How the results depend on the processing

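The 36 higher calls became 22 with a mean of at least 50 RPTM, 19 against the arithmetic mean of the other tissues, 92 at 2-fold and 16 at 8-fold. The 44 lower calls became 117 against the arithmetic mean, 17 against the median, 23 without the neural tissues, 18 with a pseudocount of 10 RPTM, 106 at 2-fold and 15 at 8-fold. The 45 miRNAs highest in lung became 27 with TMM and 25 with median-of-ratios factors, 74 without a filter and 106 without the neural tissues, and the 11 lowest became 7 with assigned reads, 35 with TMM and 39 with median-of-ratios factors. Leaving out 1 paired profile at a time gave 35 to 37 higher, 44 to 46 lower, 45 to 51 highest and 11 to 15 lowest. The distance from lung to its nearest profile, in units of the mean distance of a pair, was 2.38 and the farthest 4.17. These became 2.61 (nearest, assigned reads, large intestine 1), 2.08 and 3.70 (TMM), 2.09 and 3.67 (median-of-ratios), 2.08 and 3.69 (no filter), 2.72 and 4.72 (at least 50 RPTM), 1.95 and 3.31 (pseudocount 0.1) and 2.82 and 4.87 (pseudocount 10). miR-138-5p became -0.28 against the arithmetic mean, and miR-219-2-3p became 0.051 against the median and 0.023 without the neural tissues. Apart from what the construction of an alternative implies, the cause of these changes was not tested. The 10 miRNAs with the largest excess stayed at least 4-fold higher in the 18 to 20 alternatives that gave each a value. No paired analysis was possible because lung has 1 profile and no test was run. With 1 lung profile, differences between animals could not be measured, and levels that rest on under about 10 reads in lung are imprecise from counting error alone.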
